A study of Mus musculus with 8 samples.

Results

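The genes for the protamines (Prm1, Prm2 and Prm3) and the transition proteins (Tnp1 and Tnp2) were followed in RNA sequencing libraries of mouse testis. They were found by matching Ensembl gene identifiers to the mouse symbols, which gave 5 of the 55421 gene rows. All 5 passed the filter on low counts, among 26414 genes tested. The tissue came from male mice labelled WT in 8 libraries, 2 per group. The CTRL mice were injected with phosphate buffered saline. The LPS mice received a single intraperitoneal dose of lipopolysaccharide (LPS), the endotoxin of gram-negative bacteria, which provokes inflammation. The LPS+DHEA mice received LPS and, 6 h later, dehydroepiandrosterone (DHEA), a precursor of androgens, and the LPS+DHEA+Nb mice received DHEA together with Nb23-bi, an agent the labels name without describing. The sources used here do not give strain, age, doses, when tissue was taken or whether replicate libraries are separate mice, so p-values measure the spread between these libraries, which may be technical. No group received a second injection without DHEA, so DHEA and that injection cannot be told apart.

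During the last phase of sperm formation, elongating spermatids take the histones off their DNA, place transition proteins on it for a short time and then replace these with protamines, small arginine-rich proteins that coil DNA into a compact and transcriptionally silent form. The mRNAs are made earlier, in round spermatids, and stored in protein complexes under translational control until the spermatid elongates. They are classic markers of haploid germ cells. Protamine 2 is made as a precursor that is cut down after it binds DNA. Prm3 carries the family name and lies among the others, but its product is acidic and is not a DNA-packaging protamine. Below, packaging genes is only a label for the whole set, Prm3 included.

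Prm1, Prm2, Prm3 and Tnp2 lie together on the minus strand of chromosome 16 (GRCm38, GENCODE M21), in 17904 bases from 10787936 to 10805839, in the order Tnp2, Prm3, Prm2, Prm1 along the coordinates, with gaps of 1844, 465 and 191 bases between their annotated ends. The annotated ends of Prm2 (10796134) and Prm1 (10805839) lie upstream of their RefSeq starts (10792105 and 10796823). The gap between Prm2 and Prm1 is therefore larger when measured from the RefSeq start of Prm2. Tnp1 stands alone on the minus strand of chromosome 1, at 73015074 to 73015909. Every gene is protein coding, and Prm3 is a single exon, whereas Tnp1 and Tnp2 have 2 exons and Prm1 and Prm2 have annotated transcripts of 2 and 3 exons. The coding sequence of Prm1, read from the GENCODE transcript, is shown with its arginine codons in capitals, since this basic stretch is what binds DNA. Arginine takes 28 of its 51 codons (54.9%) and cysteine, which cross-links protamines, takes 9 (17.6%).
Prm1 coding sequence: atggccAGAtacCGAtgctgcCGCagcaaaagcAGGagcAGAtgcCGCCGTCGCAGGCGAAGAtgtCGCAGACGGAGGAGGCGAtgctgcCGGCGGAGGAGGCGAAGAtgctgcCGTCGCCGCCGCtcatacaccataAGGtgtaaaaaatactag

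Arginine took 38 of 107 codons (35.5%) in Prm2, 11 of 55 (20%) in Tnp1, 16 of 117 (13.7%) in Tnp2 and 2 of 101 (1.98%) in Prm3. Tnp1 had a further 10 lysine codons (18.2%) and no cysteine codon, Tnp2 had 22 serine codons (18.8%), and Prm3 had 30 acidic codons (29.7%). The Tnp1 coding sequence is shown because part of it lies opposite an exon of another gene that is described further on. The capitals mark these 40 bases, coding positions 100 to 139 counted from the A of the start codon, in exon 1 at chromosome 1, 73015725 to 73015764.
Tnp1 coding sequence: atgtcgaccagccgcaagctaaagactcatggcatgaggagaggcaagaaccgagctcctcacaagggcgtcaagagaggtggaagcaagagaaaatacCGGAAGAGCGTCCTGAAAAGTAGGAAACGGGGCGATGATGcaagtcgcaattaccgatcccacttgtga

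Promoter sequences of 120 bases are shown for 4 genes, to set the start regions of the clustered genes beside that of Tnp1. They were taken from the RefSeq promoter table (GRCm38.p6, minus strand) and end just before the RefSeq start for Prm3 and Prm2. For Tnp1 and Tnp2 they end just before a GENCODE start, a few bases upstream of the RefSeq start (73015899 and 10788655). Prm1 is not shown, since its GENCODE exon reaches further upstream of its RefSeq start (10796823). Capitals mark matches to TGANNTCA, a loose form of the cyclic AMP response element that CREM, an activator of round spermatid genes, recognises, or to the TATA box forms TATATA and TATAAA. Positions are chr1:73015910-73016029 for Tnp1, chr16:10788661-10788780 for Tnp2, chr16:10790915-10791034 for Prm3 and chr16:10792106-10792225 for Prm2.
Tnp1 promoter: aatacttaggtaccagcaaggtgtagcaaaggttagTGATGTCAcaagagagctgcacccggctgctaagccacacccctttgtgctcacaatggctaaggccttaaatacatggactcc
Tnp2 promoter: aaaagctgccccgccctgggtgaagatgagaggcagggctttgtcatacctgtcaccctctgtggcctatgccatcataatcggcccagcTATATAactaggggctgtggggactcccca
Prm3 promoter: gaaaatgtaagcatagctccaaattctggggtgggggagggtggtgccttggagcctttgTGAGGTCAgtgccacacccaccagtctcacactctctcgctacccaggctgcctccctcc
Prm2 promoter: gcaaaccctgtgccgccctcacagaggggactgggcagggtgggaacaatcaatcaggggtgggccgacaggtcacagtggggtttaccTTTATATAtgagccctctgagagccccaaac

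Both strands of the 250 bases before each RefSeq start were searched for motifs chosen after the promoters had been seen. TGANNTCA stood in Tnp1 (TGATGTCA, 94 bases upstream of the RefSeq start), Prm3 (TGAGGTCA, 60 bases) and Prm1 (TGACTTCA, 64 bases), and in 11.9% of 32851 mouse promoters. Most of the Prm1 match lies inside an annotated GENCODE exon of Prm1. TATATA stood in Tnp2 (35 bases upstream) and Prm2 (29 bases), and in 5.25% of promoters. TATAAA, which overlaps the TATATA of Prm2, was found there on the opposite strand and in 12.4% of promoters. The full cyclic AMP response element, TGACGTCA, stood in 0 of the 5 promoters (1.55% of all), and CCAAT in 1 of 5 (33.8% of all). These are matches of letters, not measured binding sites.

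Library totals were 61.29 to 64.52 M counts, spread over 30142 to 30626 detected genes, and counting error was small for the members (100238 to 333553 counts per library for Prm1, Prm2, Tnp1 and Tnp2, and 3529 to 4399 for Prm3). The label for LPS was checked with Saa3, an acute phase gene, at 0.895 and 1.48 CPM (counts per 1000000 counts of the scaled library) in CTRL and 114 and 161 CPM in LPS, and with Lcn2, at 127 and 125 against 327 and 314 CPM. The extraction protocol mentions islets, while the tissue label says testis. Markers of germ cells were abundant, and of 12 epididymis genes, markers of the duct that stores sperm, 9 had at most 10 counts in any library, Lcn5 and Spint4 had none, and the summed level was 3.117 to 5.022 CPM.

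Apart from Prm3, the packaging genes were among the most abundant mRNAs of the tissue. By mean CPM over the 8 libraries, Prm2 ranked 1 (4727 CPM), Tnp2 ranked 3 (4280 CPM) and Prm1 ranked 11 (2705 CPM) of all genes. Tnp1 ranked between 20 and 32 in single libraries, and Prm3, between 3330 and 3882, was far lower. Per kilobase of all annotated exon bases, Tnp2 was at 6818 to 9176 CPM per kb, Prm2 at 4701 to 5831, Prm1 at 4172 to 5143, Tnp1 at 3611 to 4515 and Prm3 at 137.1 to 167.7. The order of Tnp2 and Prm2 depends on which exons are counted: over the length of the first listed transcript of each gene, Prm2 reached 6768 to 8395 CPM per kb, which overlaps the Tnp2 range of 6818 to 9177. The ranges of Prm2 and Prm1, and of Prm1 and Tnp1, also overlap per kilobase of all exons.

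**Figure D1:**
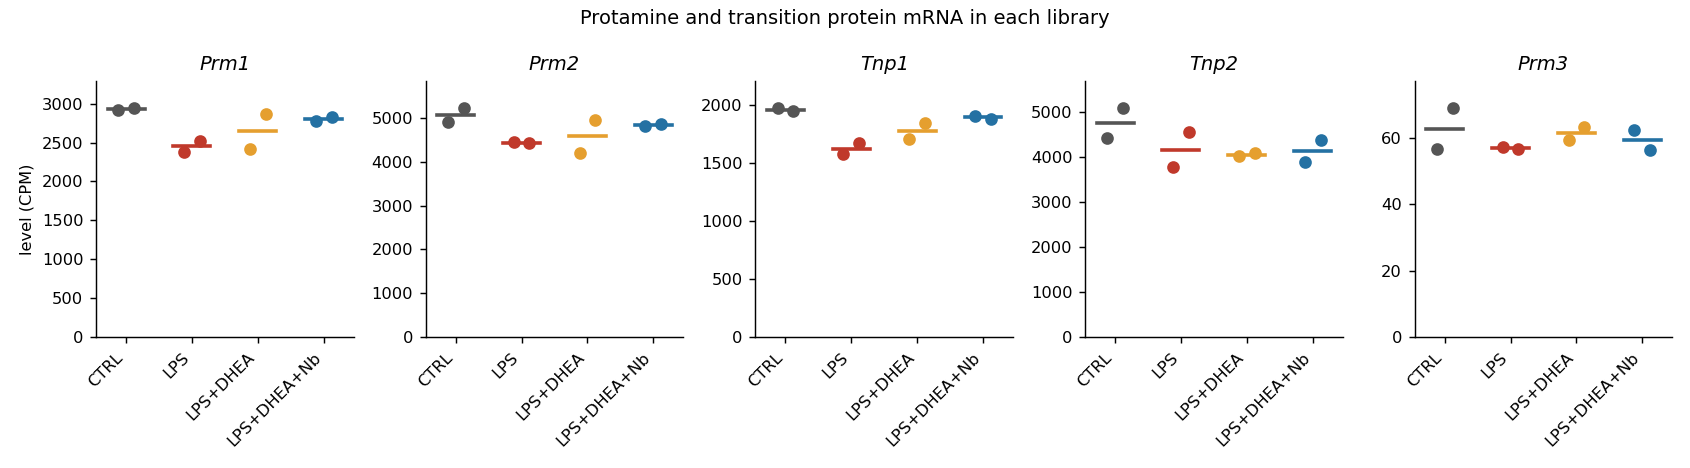
Level of each gene in CPM (vertical axes, each from 0) in the 4 groups. Each point is a library and each bar the mean of 2 libraries; the LPS points lie below both CTRL points for Prm1, Prm2 and Tnp1, and the LPS and CTRL points overlap for Prm3 and Tnp2.

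The transition proteins were described first. Tnp1 encodes the lysine- and arginine-rich transition protein 1. It stood at 1973 and 1949 CPM with saline, 1578 and 1675 with LPS alone, 1712 and 1846 after LPS and DHEA, and 1912 and 1881 after LPS, DHEA and Nb23-bi. Both LPS libraries were the lowest and both CTRL libraries the highest, and no 2 groups overlapped. Groups without any overlap, whatever their order, were found for 1.22% of all genes tested. Against CTRL, the LPS level was 0.829-fold (log2 fold change -0.27, SE 0.06), and with edgeR's quasi-likelihood test and Benjamini-Hochberg adjustment over all genes tested the adjusted p was 0.116 (unadjusted p = 0.000565, rank 128 of 26414), so Tnp1 did not pass the threshold of 0.05. In that comparison 0.295% of genes were called. Tnp1 was called lower by DESeq2 (adjusted p = 0.0344, where 1.19% of genes were called) and by edgeR without the filter on low counts (adjusted p = 0.0476, 0.365% called).

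Against LPS, the Tnp1 log2 fold change was 0.13 (SE 0.06, edgeR adjusted p = 1) in LPS+DHEA and 0.22 (SE 0.06, edgeR adjusted p = 0.284) in LPS+DHEA+Nb. Against CTRL it was -0.14 (edgeR adjusted p = 0.796) and -0.05 (edgeR adjusted p = 1). These comparisons share their LPS or CTRL libraries. The LPS+DHEA+Nb libraries lay above both LPS+DHEA libraries and below both CTRL libraries, by 0.09 and 0.05 on the log2 scale.

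Tnp2 encodes the larger, zinc-binding transition protein 2. It stood at 4431 and 5084 CPM with saline, 3777 and 4567 with LPS alone, 4024 and 4092 after LPS and DHEA, and 3884 and 4378 after LPS, DHEA and Nb23-bi. The libraries of CTRL and LPS overlapped, and replicates within those groups differed by more than the group means did. Its libraries in LPS+DHEA and LPS+DHEA+Nb lay below both CTRL libraries, a pattern whose share over all genes was not counted. The log2 fold change for LPS against CTRL was -0.19 (SE 0.10, edgeR adjusted p = 0.795), and it moved to -0.06 without LPS 1, -0.09 without CTRL 2, -0.29 without CTRL 1 and -0.33 without LPS 2. Against LPS it was -0.04 in LPS+DHEA and -0.01 in LPS+DHEA+Nb (edgeR adjusted p of 1 and 0.998). Its values therefore did not follow those of Tnp1 in the treated groups: against CTRL, Tnp2 had -0.23 in LPS+DHEA and -0.20 in LPS+DHEA+Nb. Whether Tnp1 and Tnp2 differ in response was not tested.

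Among the protamines, Prm1, the protamine of all mammals, stood at 2912 and 2937 CPM with saline, 2382 and 2523 with LPS alone, 2423 and 2867 after LPS and DHEA, and 2773 and 2826 after LPS, DHEA and Nb23-bi. Every library of the 3 LPS-exposed groups was below both CTRL libraries, and the LPS+DHEA libraries spanned the range between the LPS and CTRL levels. The share of all genes with every exposed library below CTRL was not counted. For LPS against CTRL the level was 0.839-fold (log2 fold change -0.25, SE 0.07, edgeR adjusted p = 0.323). Against LPS the log2 fold change was 0.11 in LPS+DHEA (edgeR adjusted p = 1) and 0.19 in LPS+DHEA+Nb (edgeR adjusted p = 0.659).

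Prm2, which encodes the protamine 2 precursor, stood at 4903 and 5213 CPM with saline, 4449 and 4424 with LPS alone, 4203 and 4957 after LPS and DHEA, and 4809 and 4860 after LPS, DHEA and Nb23-bi. The lowest library was LPS+DHEA 1, and its replicate lay between the CTRL libraries. For LPS against CTRL the level was 0.877-fold (log2 fold change -0.19, SE 0.07, edgeR adjusted p = 0.568). Against LPS the log2 fold change was 0.05 in LPS+DHEA and 0.12 in LPS+DHEA+Nb (edgeR adjusted p of 1 and 0.841). Both LPS libraries were below both CTRL libraries for 3 of the 5 genes (Prm1, Prm2 and Tnp1), and for 18.1% of all genes tested.

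Prm3 stood at 56.56 and 68.75 CPM with saline, 57.03 and 56.44 with LPS alone, 59.38 and 63.25 after LPS and DHEA, and 62.27 and 56.21 after LPS, DHEA and Nb23-bi. CTRL 2 was the highest library, and CTRL 1 was as low as the LPS libraries. The log2 fold change for LPS against CTRL was -0.14 (SE 0.10, edgeR adjusted p = 0.865), and without CTRL 2 it was 0.005.

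None of the 5 genes was called in any comparison by edgeR. The share of all genes called was 0.0189% for LPS+DHEA against LPS, 0.17% for LPS+DHEA+Nb against LPS, 0.0871% for LPS+DHEA+Nb against LPS+DHEA, 0.151% for LPS+DHEA against CTRL and 0.0303% for LPS+DHEA+Nb against CTRL. It was 0.208% for the mean of the 3 LPS-exposed groups against CTRL and 0.239% for any difference among the 4 groups. At an unadjusted p under 0.05, 3 of the 5 genes (Prm1, Prm2 and Tnp1) had a lower level in LPS than in CTRL, as did 755 of all genes tested (2.86%). With the 3 LPS-exposed groups averaged, the log2 fold change against CTRL ran from -0.21 for Tnp2 (edgeR adjusted p = 0.769) to -0.09 for Prm3 (edgeR adjusted p = 0.944), with Prm1 and Tnp1 both at -0.15 (edgeR adjusted p of 0.707 and 0.485). In bulk tissue, fewer late spermatids and less of these mRNAs per spermatid cannot be told apart.

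**Figure D2:**
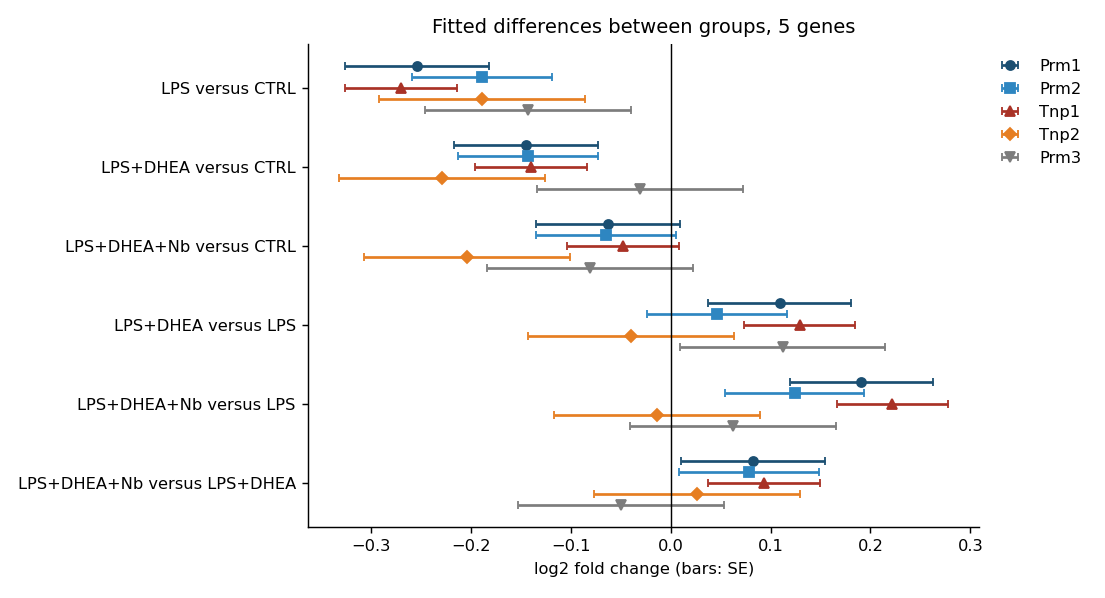
Fitted log2 fold change (horizontal axis) of the 5 genes in 6 comparisons between groups (vertical axis), with bars for the SE. All 5 genes lie below 0 for LPS versus CTRL, from -0.27 to -0.14, and none of the values passed an adjusted p of 0.05 in edgeR.

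Together the 5 genes took 1.406% and 1.512% of all counts with saline, 1.221% and 1.339% with LPS alone, 1.26% and 1.379% after LPS and DHEA, and 1.338% and 1.407% after LPS, DHEA and Nb23-bi. Wilson 95% intervals, which cover counting error only, were 1.403 to 1.408% in CTRL 1 and 1.336 to 1.342% in LPS 2. The highest LPS library was below the lowest CTRL library, an order that 18.1% of all genes tested showed singly in CPM. The other groups overlapped. LPS+DHEA overlapped both LPS and LPS+DHEA+Nb. LPS 2 (1.339%) lay above LPS+DHEA+Nb 1 (1.338%), and LPS+DHEA+Nb 2 (1.407%) lay above CTRL 1 (1.406%). The mean shares were 1.459% ± 0.075 in CTRL, 1.28% ± 0.0834 in LPS, 1.32% ± 0.0841 in LPS+DHEA and 1.372% ± 0.0488 in LPS+DHEA+Nb (SD, n = 2 each). With 2 libraries against 2, no exact permutation test can reach 0.05, so these shares are given without a test.

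The balance between the genes varied less than their total for the protamines. The ratio of Prm2 to Prm1 counts, often assayed in mature sperm at the protein level, was 1.684 and 1.775 with saline, 1.867 and 1.754 with LPS alone, 1.734 and 1.729 after LPS and DHEA, and 1.734 and 1.72 after LPS, DHEA and Nb23-bi. The CTRL and LPS libraries overlapped. The ratio of Tnp1 to Prm1 counts, genes on different chromosomes, was 0.6775 and 0.6636 in CTRL and 0.6624 and 0.6639 in LPS, and 0.6438 to 0.7066 over all libraries. The ratio of Tnp2 to Tnp1 counts was 2.246 and 2.609 with saline, 2.393 and 2.727 with LPS alone, 2.35 and 2.217 after LPS and DHEA, and 2.031 and 2.327 after LPS, DHEA and Nb23-bi, with all groups overlapping CTRL. The ratio of the 3 protamine genes to the transition protein genes was 1.122 to 1.328, and its lowest and highest values fell in LPS 2 and LPS+DHEA 2.

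**Figure D3:**
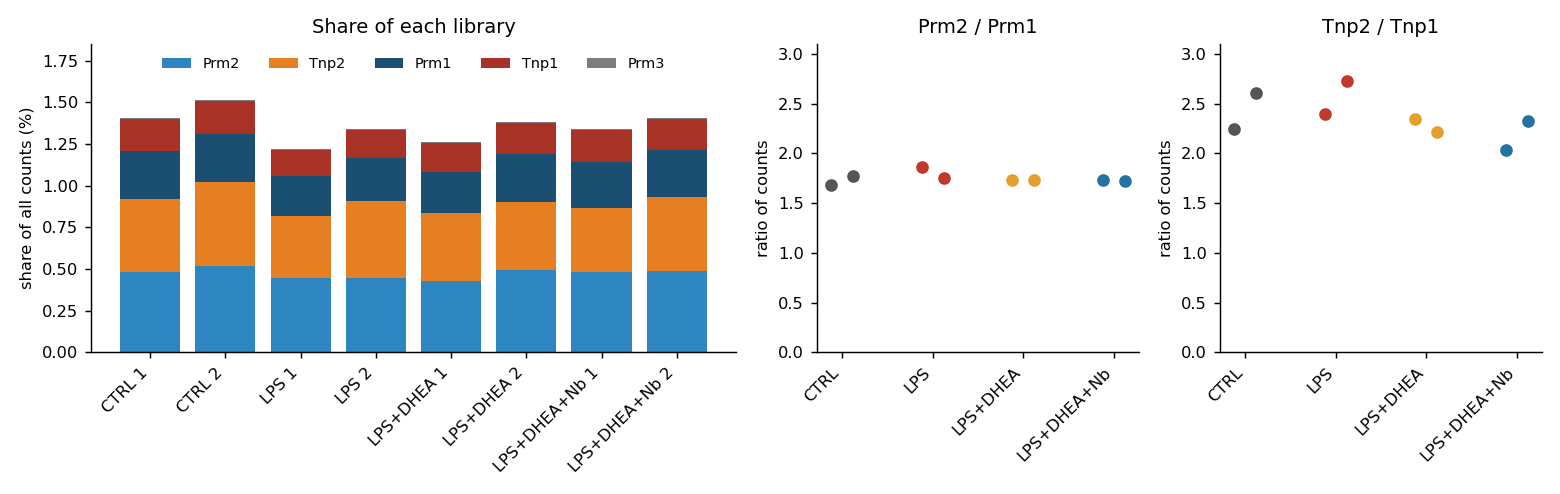
Left, share of all counts in each library (vertical axis, %), stacked by gene; middle and right, the ratios of Prm2 to Prm1 and of Tnp2 to Tnp1 counts by group, each point a library. The summed share is 1.221 to 1.339% in LPS and 1.406 to 1.512% in CTRL, and the ratios of these groups overlap.

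Over the 8 libraries, log2 CPM of Prm1 went with that of Tnp1 (Pearson r = 0.943) and Prm2 (r = 0.939), and Prm2 with Tnp1 (r = 0.821). Tnp2 had r of 0.342 to 0.526 with the other 4 genes, and Prm3 had r of 0.342 to 0.571. Both lie in the cluster with Prm2 and Prm1, and Tnp1 does not. These are descriptions over libraries that share their depth and scaling, with no test. Among 9034 genes ranked, the 5 whose log2 CPM was most like the mean of the members were Fer (r = 0.951), Aars2 (r = 0.95), Rp9 (r = 0.943), Rexo1 (r = 0.941) and Fam216a (r = 0.939). Rexo1 was at 289.7 and 308.9 CPM in CTRL and 185 and 197.3 CPM in LPS.

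Tnp1 lies inside another gene on the opposite strand, the antisense non-coding RNA gene 1700027A15Rik (plus strand, chromosome 1, 72984844 to 73025507). The overlap of exons is the 40 bases shown in capitals in the Tnp1 coding sequence, of 1396 exon bases annotated for 1700027A15Rik. The other genes overlapping a member, Gm10343 and Gm46563 opposite Prm1, shared no exon bases with it and were not called in any comparison. 1700027A15Rik stood at 257 and 245 CPM with saline, 210 and 209 with LPS alone, 207 and 218 after LPS and DHEA, and 82.7 and 85.7 after LPS, DHEA and Nb23-bi. Both LPS+DHEA+Nb libraries were far below the 6 others. Its level fell in LPS+DHEA+Nb against LPS+DHEA (log2 fold change -1.34, SE 0.07, edgeR adjusted p = 1.41e-05), against LPS (-1.31, SE 0.07, edgeR adjusted p = 8.34e-06) and against CTRL (-1.58, SE 0.07, edgeR adjusted p = 2.61e-06). By p it ranked 1, 2 and 1 of the 26414 genes in these comparisons, which share the LPS+DHEA+Nb libraries. Over 19 alternative settings, 1 of them the main fit at a threshold of 0.1, its log2 fold change stayed negative. It ran from -1.366 to -1.301 against LPS+DHEA, from -1.34 to -1.286 against LPS and from -1.606 to -1.543 against CTRL.

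In LPS against CTRL, 1700027A15Rik was not called (log2 fold change -0.26, SE 0.06, edgeR adjusted p = 0.208), beside -0.27 for Tnp1. The counts of 1700027A15Rik were 11.8 to 13.3% of those of Tnp1 in the 6 libraries made without Nb23-bi, and 4.32 and 4.56% in the libraries with it, where Tnp1 itself was at 1912 and 1881 CPM. The library kit keeps strand, but no source used here says whether the counting used it, so reads of Tnp1 and of its antisense partner cannot be told apart in the shared bases. Counts per gene do not show where along 1700027A15Rik the reads fell.

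**Figure D4:**
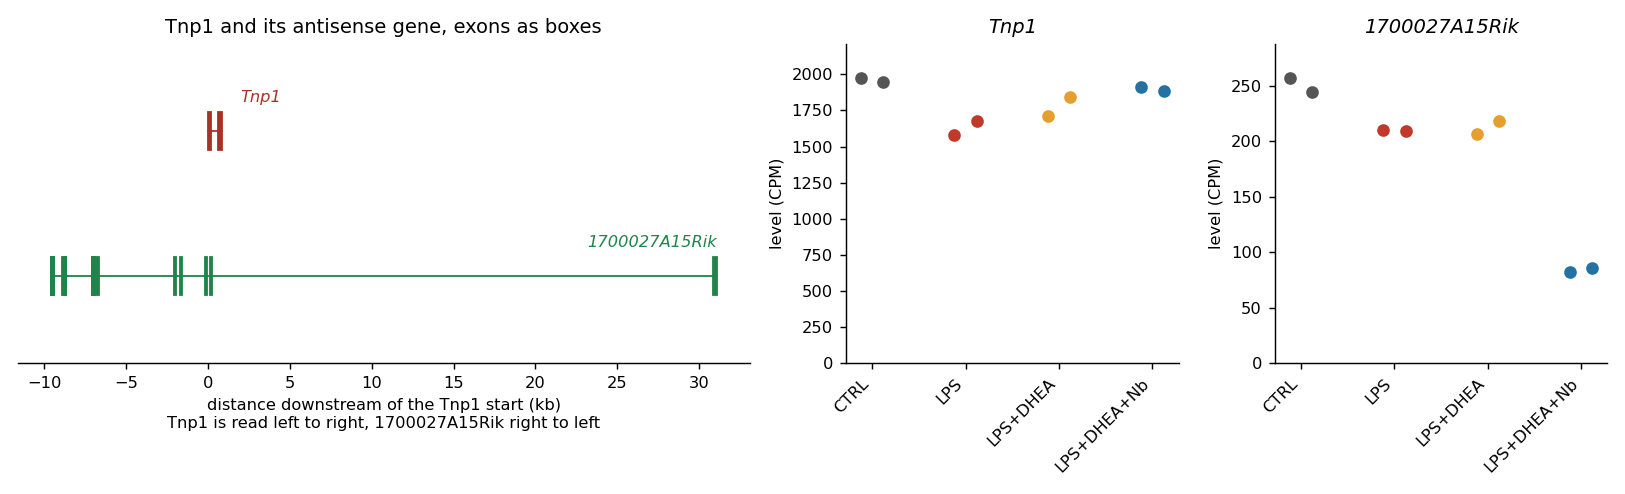
Left, exons (boxes) of Tnp1 and of 1700027A15Rik by distance downstream of the Tnp1 start (horizontal axis, kb); middle and right, their levels in CPM in the 4 groups, each point a library. 1700027A15Rik is at 82.7 and 85.7 CPM in LPS+DHEA+Nb and at 207 to 257 CPM in the other groups, while Tnp1 shows no such gap.

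The other genes of the pathway were taken from lists. Of 30 genes for the exchange of histones for protamines (testis histone variants, chromatin readers and modifiers), 15 had a lower and 15 a higher level in LPS than in CTRL, with a median log2 fold change of 0.003, and none was called. The smallest p-values belonged to Top2b, a topoisomerase that relieves DNA strain (0.27, edgeR adjusted p = 0.507), H2al2a, the gene of the histone variant H2A.L.2 that opens nucleosomes to transition proteins (-0.23, edgeR adjusted p = 0.514), 1700024P04Rik (-0.18, edgeR adjusted p = 0.683) and Chd5, a chromatin remodeller (0.175, edgeR adjusted p = 0.717). H2al2a stood at 150.3 and 145.6 CPM in CTRL and 121.9 and 130 CPM in LPS. Both LPS libraries were below both CTRL libraries, as for 18.1% of all genes tested.

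Of 31 regulators of these mRNAs (transcription factors, RNA-binding proteins and germ granule proteins), 20 were lower in value in LPS, the median was -0.02 and none was called. The smallest p-values were those of Sox5 (0.25, edgeR adjusted p = 0.612), Piwil1, a small RNA-binding Argonaute protein of spermatocytes and round spermatids (0.21, edgeR adjusted p = 0.629), Cnbp (-0.18, edgeR adjusted p = 0.683) and Pabpc6, a poly(A)-binding protein (-0.21, edgeR adjusted p = 0.753). Ybx2, the germ cell protein that holds protamine mRNA in store, was at 2430 and 2669 CPM in CTRL and 2470 and 2557 CPM in LPS and was added to those named after its values were seen.

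Among 39 other mRNAs of late spermatids (tail, sheath and acrosome genes), 31 (79.5%) had a lower value in LPS than in CTRL, with a median of -0.08, beside -0.19 for the 5 packaging genes and -0.002 over all genes tested, of which 50.3% were lower. None of the 39 was called. Fscn3, a spermatid actin-bundling protein gene, had -0.23 (edgeR adjusted p = 0.278), Spata3 -0.34 (edgeR adjusted p = 0.432), Tex37 -0.21 (edgeR adjusted p = 0.468) and Txndc2, a sperm tail thioredoxin gene, -0.18 (edgeR adjusted p = 0.495). Fscn3 stood at 294.4 and 284.7 CPM in CTRL and 239.3 and 255 CPM in LPS. Summed, the 39 mRNAs were at 33570 to 34260 CPM in CTRL and 32260 to 32930 CPM in LPS.

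Of 28 round spermatid genes, the stage in which the packaging mRNAs are first made, 10 were lower in value (median 0.06), and of 28 meiotic spermatocyte genes 19 were (median -0.06). None of either list was called.

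**Figure D5:**
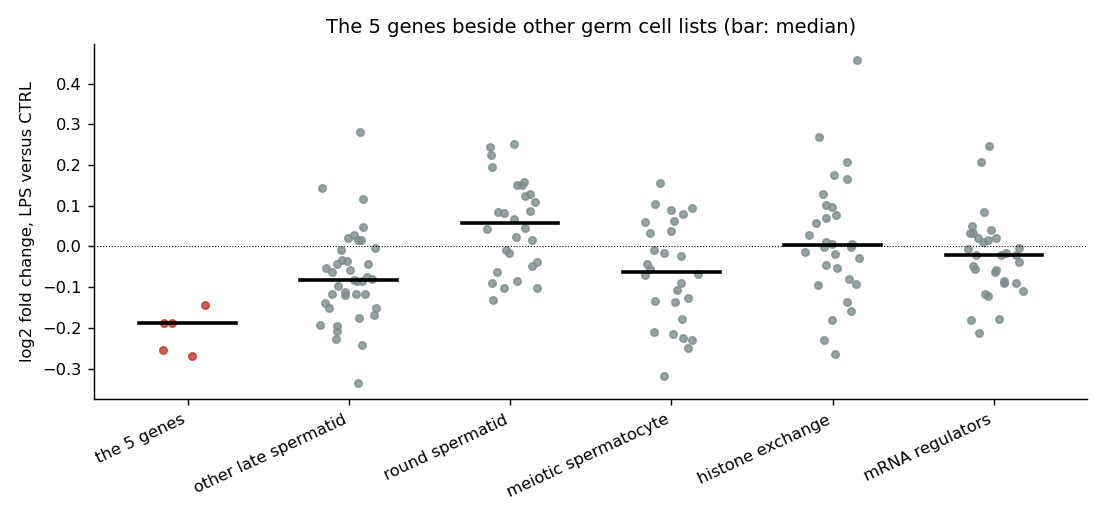
Log2 fold change for LPS versus CTRL (vertical axis) of each tested gene in 6 lists (horizontal axis), with a bar at the median. The medians are -0.19 for the 5 packaging genes, -0.08 for other late spermatid genes and 0.06 for round spermatid genes, and no gene shown was called by edgeR.

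Against LPS, the LPS+DHEA+Nb libraries had a median log2 fold change of 0.04 over the 39 late spermatid mRNAs (25 higher in value), 0.01 over the exchange list (15 of 30) and 0.03 over the regulators (16 of 31), beside 0.12 for the 5 packaging genes. None was called. The smallest p-values among late spermatid mRNAs were those of Meig1, needed to build the spermatid manchette (0.30, edgeR adjusted p = 0.196), Cabs1 (0.20, edgeR adjusted p = 0.722), Hmgb4 (0.17, edgeR adjusted p = 0.731) and Cypt1 (0.17, edgeR adjusted p = 0.805). Meig1 stood at 937.7 and 860 CPM in LPS+DHEA+Nb, above the 694.7 to 799.3 CPM of all other libraries, a pattern whose share over all genes was not counted. In the exchange list they were Chd5 (-0.22, edgeR adjusted p = 0.657), Hist1h2aa (-0.87, edgeR adjusted p = 0.703), Crebbp (-0.24, edgeR adjusted p = 0.753) and 1700024P04Rik (0.17, edgeR adjusted p = 0.775). Among the regulators they were Cnot7, a deadenylase subunit (0.33, edgeR adjusted p = 0.506), Sox30 (-0.19, edgeR adjusted p = 0.681), Hnrnpk (0.18, edgeR adjusted p = 0.788) and Cnbp (0.15, edgeR adjusted p = 0.816).

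Between LPS+DHEA and LPS, the medians were 0.11 for the 5 packaging genes, 0.02 for late spermatid mRNAs, 0.004 for the regulators and -0.004 for the exchange list, with none called. The 4 smallest p-values were those of Hist1h2ba, Epc1, Hist1h2aa and Top2b in the exchange list, of Cnot7, Tarbp2, Rfx2 and Hnrnpk among the regulators and of Hk1, Txndc2, Meig1 and Car2 among late spermatid mRNAs, each with an edgeR adjusted p of 1.

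Markers of other cells were summed in the same groups. The summed level of 21 Sertoli cell markers was 1630 to 1645 CPM in CTRL, 1905 to 1955 in LPS, 1856 to 1948 in LPS+DHEA and 1631 to 1769 in LPS+DHEA+Nb, with 16 of 21 higher in value in LPS than in CTRL (median 0.11) and none called. Most of the difference in this sum was Clu, at 642 to 654.5 CPM in CTRL and 869.4 to 889.7 in LPS (edgeR adjusted p = 0.141), while the 20 other markers summed to 988.6 to 990.3 and 1036 to 1065 CPM. For 14 peritubular and endothelial markers it was 171.8 to 186.9, 274.6 to 280, 253 to 274.8 and 188.4 to 190.5 CPM, with 13 of 14 higher in value and 1, Acta2, called. For 12 neutrophil markers it was 129.2 to 131.8, 321.6 to 337.6, 234.1 to 257.1 and 109.9 to 144.1 CPM. Nearly all of this sum was Lcn2, the gene used above to check the LPS label, and the 11 other markers summed to 4.33 to 4.778 CPM in CTRL, 7.754 to 10.58 in LPS, 6.951 to 10.23 in LPS+DHEA and 4.138 to 6.133 in LPS+DHEA+Nb. Of these 12, 9 were tested, all 9 were higher in value, 2 (Lcn2 and S100a8) were called, and S100a8, Ngp, Retnlg, Elane, Cxcr2 and Mmp8 were at 0 in both CTRL libraries. Over all genes tested, 0.295% were called and 50.3% were lower in value. Being at 0 in CTRL, the tested S100a8, Ngp, Retnlg and Cxcr2 could only be higher, so their direction was fixed in advance. Mpo had a log2 fold change of only 0.002. For 18 macrophage and monocyte markers the sum was 306 to 315.6 CPM in CTRL and 314.2 to 326.7 in LPS, which overlap, with 10 of 18 higher in value and none called. Aif1 was the largest part of this sum (mean 198.4 CPM over all libraries, log2 fold change 0.02). Single markers went both ways, from -1.35 for Cx3cr1 to 3.42 for Itgam. For 20 Leydig cell markers the sum was 1197 to 1387 CPM in CTRL and 1053 to 1079 in LPS, 13 of 20 lower in value and none called. The lowest log2 fold changes were those of Cyp17a1 (-2.08), Hsd3b1 (-1.75) and Cyp11a1 (-1.205), and the highest that of Fdxr (0.36). Insl3, the largest part of this sum (mean 540 CPM over all libraries), was at -0.04. The 13 mitochondrially encoded mRNAs were all lower in value in LPS than in CTRL (median -0.36). They summed to 12330 and 9723 CPM in CTRL and 8748 and 9501 CPM in LPS. As a share of all counts, mitochondrially encoded genes overlapped between these groups, at 0.978% in CTRL 2 and 0.981% in LPS 2. All 13 were higher in value than in LPS both in LPS+DHEA (median 0.09) and in LPS+DHEA+Nb (median 0.24), beside medians of 0.11 and 0.12 for the 5 packaging genes, and none was called in these comparisons. No Sertoli, peritubular and endothelial, macrophage, Leydig or mitochondrially encoded gene of these lists was at 0 in all CTRL libraries. The part of these cells or of RNA quality in the levels of the packaging genes was not tested.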

How the data were processed

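RNA-seq of mouse testis was used from 8 libraries in 4 groups, taken from the labels' titles. Library preparation used a stranded KAPA kit, per the labels' protocols, and HISAT and featureCounts 1.5.0-p3 with GRCm38 are named in the submitters' processing notes. The deposited values were taken as estimated counts (expected counts) per gene, since they were whole but 33.5% of values from 1 to 40 were multiples of 4. Planned count tests were kept. No source used here states the strand setting or the handling of multiple matches.

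Genes kept by filterByExpr of edgeR 4.0.16 (minimum count 10, total 15) were scaled by TMM (factors 0.9849 to 1.015) and fitted in 1 quasi-likelihood model of 4 groups with 4 residual degrees of freedom (R 4.3.3). P-values were adjusted by Benjamini-Hochberg over 26414 genes and called under 0.05. SE is the log2 fold change divided by the square root of F. CPM use TMM-scaled sizes. Symbols were matched for 55154 of 55421 rows. Likeness used log2 CPM with a pseudocount of 0.5 and a mean of at least 10 CPM. The steps were tested on simulated data. Alternatives were DESeq2 1.42.0, limma-voom (limma 3.58.1), other scalings and filters, counts divided by 4, only the groups compared, a replicate block and leaving out each library. A further setting was the main fit itself, called at an adjusted p under 0.1.

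The members and lists were chosen with earlier results of these data known. Named are the members, overlapping genes, the 5 most alike genes, Saa3 and Lcn2, and in 3 lists called genes and the 4 with the smallest p. Ybx2, Acta2, S100a8 and Clu, and markers at or near 0 (Lcn5, Spint4, Ngp, Retnlg, Elane, Cxcr2 and Mmp8), were named after their values were seen. So were Mpo, Aif1, Cx3cr1, Itgam, Cyp17a1, Hsd3b1, Cyp11a1, Insl3 and Fdxr. Replicates of a group were not identical in counts.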

Additional observations from a re-analysis of the deposited data

How the results depend on the processing

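The 5 packaging genes stayed uncalled in every comparison and alternative except LPS against CTRL, where 1 of them, Tnp1, was called with no filter on low counts and with DESeq2. Over all genes, DESeq2 called 291 in place of 78 in LPS against CTRL, 35 in place of 5 in LPS+DHEA against LPS, 207 in place of 45 in LPS+DHEA+Nb against LPS, 116 in place of 23 against LPS+DHEA, 182 in place of 40 in LPS+DHEA against CTRL, 74 in place of 8 in LPS+DHEA+Nb against CTRL, 221 in place of 55 for the 3 exposed groups and 371 in place of 63 for any difference. The fewest were 49, 5, 19, 11, 23, 4, 28 and 44. The cause was not tested.

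Deviations of same-numbered replicates had correlations of -0.047 to 0.084 between groups over 18407 genes, so no pairing was seen over genes as a whole. Whether a part of the genes is paired was not tested. Among the members, library 1 was below library 2 in 4 of 4 groups for Prm1, Tnp2 and the summed share. It was so in 3 groups for Prm2 and in 2 for Prm3 and Tnp1. How many of all genes show such an order was not counted. With the replicate block, 0 of the 5 genes were called in any comparison and Tnp1 in LPS against CTRL had a log2 fold change of -0.27 (edgeR adjusted p = 0.0875). The block gave 62, 5, 47, 16, 29, 8, 36 and 51 calls over all genes.

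Leaving out 1 library at a time changed the sign of uncalled values. For LPS against CTRL, Prm3 ran from -0.279 to 0.005. For LPS+DHEA against LPS, Prm1 ran from -0.018 to 0.22, Prm2 from -0.079 to 0.155, Tnp2 from -0.175 to 0.095 and 1700027A15Rik from -0.014 to 0.05. For LPS+DHEA+Nb against LPS, Prm3 ran from -0.011 to 0.135 and Tnp2 from -0.144 to 0.129, with 0.072 without LPS+DHEA+Nb 1. For LPS+DHEA+Nb against LPS+DHEA, Prm1 ran from -0.031 to 0.208, Prm2 from -0.032 to 0.202, Prm3 from -0.12 to 0.026 and Tnp2 from -0.059 to 0.115. Against CTRL, Prm3 ran from -0.17 to 0.113 in LPS+DHEA (0.011 without LPS+DHEA 1), from -0.215 to 0.069 in LPS+DHEA+Nb and from -0.221 to 0.062 for the 3 exposed groups. In LPS against CTRL, Prm1 ran from -0.294 to -0.213, Prm2 from -0.235 to -0.144, Tnp1 from -0.311 to -0.227 and Tnp2 from -0.331 to -0.059.

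With the 10 most abundant genes out of the denominator, the share was higher in every group, at 1.514% in CTRL, 1.326% in LPS, 1.367% in LPS+DHEA and 1.423% in LPS+DHEA+Nb. Per length of exons, the Prm2 to Prm1 ratio was 1.104 in CTRL, 1.156 in LPS, 1.106 in LPS+DHEA and 1.104 in LPS+DHEA+Nb, the Tnp2 to Tnp1 ratio 1.915, 2.019, 1.802 and 1.719, and the ratio of protamines to transition proteins 0.837, 0.8388, 0.8681 and 0.8872. The shifts in these ratios follow from the lengths used.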
